A study of Mus musculus with 12 samples.

Results

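T cells made up a small population of the mouse paw epidermis, and 386 of the 127755 barcodes that passed the filters met the rule for them. A barcode was counted as a T cell when it held 200 to 6000 genes, at most 5% mitochondrial UMIs, at least 3 UMIs summed over Cd3d, Cd3e, Cd3g, Trdc, Trbc1 and Trbc2, no UMI of Cd207, and less than 0.5% of its UMIs in Krt1, Krt10, Krt5 and Krt14. A UMI is a molecular tag that makes the count one of captured transcripts, whatever the number of PCR copies. Of the 386 T cells, 196 held a UMI of Trdc and are called Trdc-positive, 159 held Trbc1 or Trbc2 and no Trdc and are called the Trb part, and 31 held UMIs of the CD3 genes only. Since these genes chose the cells, their levels are described below without a test.

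The cells came from the glabrous hind paw epidermis of wild-type C57BL/6J mice aged 16 to 18 weeks, which had been fed for 10 weeks from an age of 6 to 8 weeks. Regular diet (RD) held 11% fat, and the high-fat diet (HFD) held 42% fat. Males and females were kept on each diet, which gives 4 groups of 3 mice with 1 library per mouse, and no mouse received a drug. HFD is used by the study as a model of painful diabetic neuropathy, and the epidermis was peeled from the dermis with dispase before droplet sequencing. All male count files carried an earlier software version than all female files, so sex and counting software cannot be told apart.

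T cells recognize antigen through a receptor made of either an alpha and a beta chain or a gamma and a delta chain, and both kinds of receptor signal through the CD3 proteins. Mouse epidermis is known for dendritic epidermal T cells, gamma delta T cells that seed the skin before birth, lie between keratinocytes and respond to stressed or wounded neighbors. Gamma delta T cells that make interleukin 17 are a separate lineage in mouse skin and are known chiefly from the dermis, while alpha beta T cells enter the epidermis as resident memory cells.

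The libraries held between 7370 and 16254 barcodes and between 134449247 and 194673581 UMIs. T cells were shallower than keratinocytes, with a median of 2065 UMIs and 1059 genes per T cell against a median of 9274 UMIs in 80838 keratinocytes (keratins at least 0.5% of UMIs, no UMI of Cd207 or of the 6 T cell genes). The median T cell held 9 UMIs of the 6 genes. At the edge of the rule, 48 T cells held exactly 3 such UMIs and 62 barcodes outside it held exactly 2. Another 23 barcodes met every condition except that their mitochondrial share was between 5% and 10%, and 3 had more than 6000 genes. Libraries shared between 15 and 70 barcodes in the 66 pairs, at most 0.564% of the smaller library, and no T cell barcode was a T cell in a second library. Xist was found in the T cells of all 6 females (751 to 1312 CPM) and of no male, and Ddx3y in those of all 6 males (57.0 to 158 CPM) and of no female, where CPM is the share of a gene in the summed UMIs of the T cells of a mouse, with 1 CPM being 0.0001%.

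Trdc, at chr14:54142851-54148868 (GRCm38), encodes the constant region of the delta chain. It lies between the delta variable segment Trdv4 (chr14:54074905-54075515) and Trac (chr14:54220521-54224206), the alpha constant region, all on the forward strand. Trbc1 (chr6:41538218-41539881) and Trbc2 (chr6:41546730-41548352) are neighboring copies of the beta constant region, and a short read of their shared sequence may be assigned to either or to neither. Of the Trdc-positive cells, 119 of 196 (60.7%) also held a Trbc UMI, so that a beta constant transcript alone did not set both parts apart. The gamma constant gene Tcrg-C1 was found at chr13:19214103-19217024.

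Of the marker genes given for the population, Cd3e, Cd3g, Trdc and Trbc2 belong to the rule, so that their presence was set by it. Nkg7 and Cd28 do not, and both were found. In Trdc-positive cells Cd3g, the CD3 gamma chain, had a UMI in 95.9% of cells and Cd3e, the CD3 epsilon chain, in 65.3%. In the Trb part the same genes had a UMI in 79.2% and 27% of cells, and in 96.9% and 33.1% of its cells with a CD3 UMI. Nkg7, a protein of cytotoxic granules, was found in 52.0% of Trdc-positive cells and 38.4% of the Trb part, and Cd28, a costimulatory receptor, in 10.2% and 40.3%. Keratinocytes, which should lack these genes, held a UMI of Nkg7 in 0.00371% and of Cd28 in 0.736% of barcodes at their greater depth.

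Genes that mark T cells but were not used to choose them were high as well. The 20 genes with the largest ratio of T cells to the mean of Langerhans cells (LCs) and keratinocytes, among genes of at least 50 CPM, included all 6 genes of the rule, whose place was fixed because both comparison groups were chosen to hold none of their UMIs. The genes outside the rule were led by Ctla2a, a cathepsin inhibitor (chr13:60934155-60936625), at 2943 ± 1389 CPM (SD, n = 12 mice) against 0.0622 in LCs and 0.0623 in keratinocytes. Il2rb, the beta chain of the receptors for interleukin 2 and interleukin 15, stood at 438 ± 165 CPM, and Il17a, the gene of interleukin 17A, at 330 ± 296 CPM. The chemokine Xcl1 had 286 ± 204 CPM and Trdv4 297 ± 195 CPM. Nkg7, Ptprcap, Tox, Ikzf3, Trat1, Tcrg-C1, Icos and Il22 were also among them. Each gene named here had a UMI in the T cells of all 12 mice except Xcl1, which had none in male HFD replicate 3.

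Markers of most other cell types were at or close to 0. No UMI of the B cell markers Cd79a and Ms4a1 or of the mast cell markers Cpa3, Mcpt4, Cma1 and Tpsb2 was found in any T cell. The 5 monocyte and macrophage markers had 1 UMI in all, the 4 Merkel cell markers 1, the 4 melanocyte markers 2 and the 4 fibroblast markers 4. Of the 5 markers of natural killer and innate lymphoid cells, 4 had UMIs, 890 in all (265 to 2269 CPM over mice, against medians of 28.2 CPM in LCs and 35.4 in keratinocytes), and Ncr1, which defines natural killer and some innate lymphoid cells, was at 0. Areg, described below, is 1 of the 4. Of the endothelial markers, Pecam1 had 49 UMIs and Cdh5 and Kdr had none. The LC markers summed to between 15.1 and 768 CPM over mice, against 59954 to 73471 CPM in LCs. All 10 keratinocyte markers had UMIs in T cells, 4 of them the keratins that the rule limits, and they summed to between 1824 and 6439 CPM, against 32458 to 53192 CPM in keratinocytes.

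The label of T cells held less well for part of the Trb part. No UMI of Cd3d, Cd3e or Cd3g was found in 29 of its 159 cells and in 4 Trdc-positive cells. These 33 cells held 25.3% of all T cell UMIs, and the 29 held 42.0% of the UMIs of the Trb part. A UMI of Ptprc, Coro1a or Cd52, genes of all leukocytes, was present in 97.7% of the 130 cells of the Trb part with a CD3 UMI and in 51.7% of the 29 without, although the latter were deeper (median 7824 against 2607 UMIs). Of the 19 barcodes with over 8000 UMIs, 14 had no CD3 UMI. The deepest barcode of the whole population, with 41641 UMIs, was of this kind.

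Trbc2 was not confined to T cells in these libraries. Among 120881 barcodes with keratins of at least 0.5% of UMIs (median 10691 UMIs), chosen without any condition on T cell genes, 32.2% held a UMI of Trbc2. The level of Trbc2 there was 46.6 CPM over all barcodes, and 30.1 to 62.4 CPM over the 12 mice. The other genes of the rule had a UMI in 0.0397% (Cd3d), 0.0563% (Cd3e), 0.0769% (Cd3g), 0.0472% (Trdc) and 0.187% (Trbc1) of the same barcodes. In 2806 barcodes with at least 3 UMIs of Cd207, Trbc2 was found in 0.428%, and Trdc and Trbc1 in none. The level was 381 CPM in Trdc-positive cells, 558 CPM in the Trb part with a CD3 UMI and 294 CPM in the Trb part without. Each of the 29 cells without a CD3 UMI had to hold at least 3 UMIs of Trbc1 and Trbc2 to meet the rule. Their level thus had a floor set by the rule and cannot be weighed against that of the barcodes with keratins. The part of this Trbc2 signal in the 29 cells was not tested, and the comparisons with the Trb part below say whether the cells that lack a CD3 UMI were included.

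**Figure D1:**
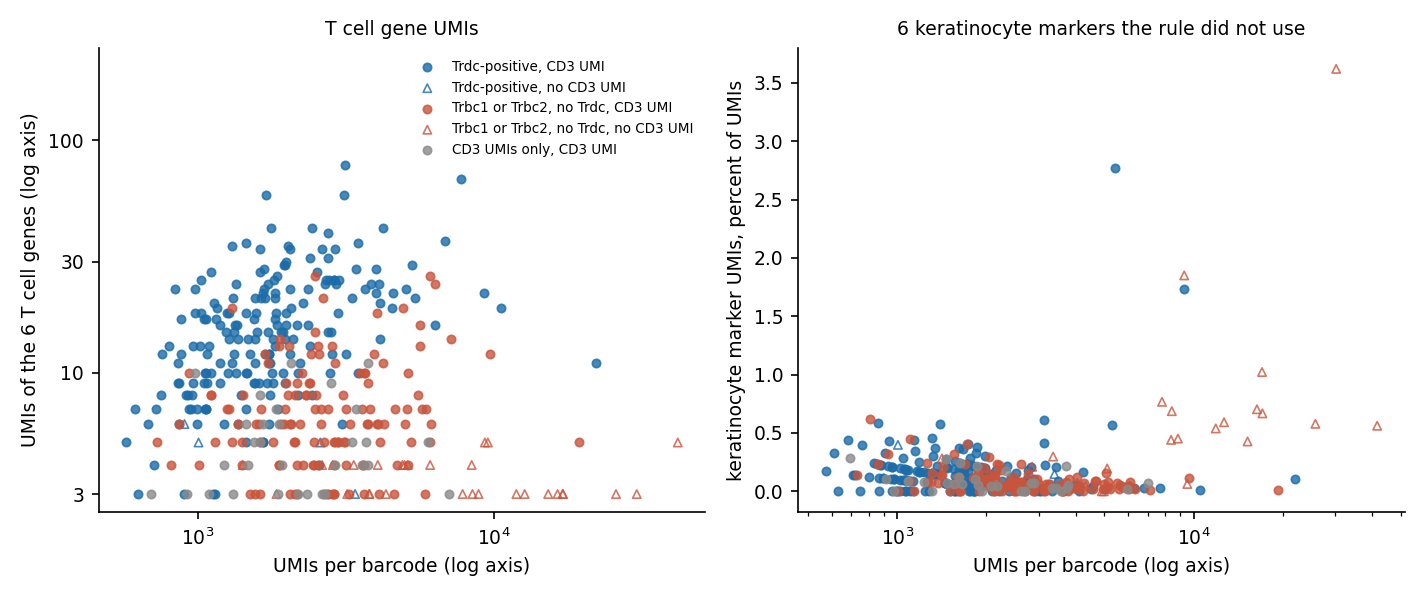
Each point is 1 of the 386 T cells, with its UMIs on a log axis against the UMIs of the 6 T cell genes (left, log axis) and against the share of its UMIs in Dsp, Perp, Sfn, Krt16, Krt17 and Lgals7 (right, percent). Blue marks Trdc-positive cells, red the Trb part and grey cells with CD3 UMIs only, and open triangles have no CD3 UMI. The barcodes with over 8000 UMIs are mostly open red triangles near the lower limit of 3 T cell UMIs, and most of them lie above the bulk of cells on the right.

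The 6 keratinocyte genes outside the rule were low in most T cells. Their median share of UMIs was 0.0758% in the 353 cells with a CD3 UMI and 0.283% in the 33 without. In the Trb part with a CD3 UMI the median share was 0.0550%, and in Trdc-positive cells it was 0.104%. Summed over the T cells of a mouse, these genes stood at 1408 to 2080 CPM in male RD, 2949 to 5021 in male HFD, 925 to 2290 in female RD and 1180 to 5171 in female HFD mice. Over all T cells the male groups did not overlap, but within each part they did. Trdc-positive cells had 1417 to 2148 CPM on RD and 1747 to 6658 on HFD, and the Trb part 1191 to 2071 and 470 to 4799. A Trdc-positive barcode of 9251 UMIs in male HFD replicate 1 held 1.73% of its UMIs in these genes. Another, of 5419 UMIs in male HFD replicate 2, held 2.77%. Whether RNA of keratinocytes contributed to any difference between diets was not tested.

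Transcripts of the receptor chains that the rule did not use followed the split. At least 1 of Tcrg-C1, Tcrg-C2, Tcrg-C4 and Trdv4 was found in 79.1% of Trdc-positive cells and in 17% of the Trb part. Trdv4, found in 121 of the 196 Trdc-positive cells, is rearranged with Trdc, so its share is tied to the split and is not separate support for it. Trac was found in 7.65% of Trdc-positive cells, 31.4% of the Trb part and 54.8% of the cells with CD3 UMIs only. Neither Cd4 nor Cd8a nor Cd8b1, the coreceptors of alpha beta T cells, was found in any of the 196 Trdc-positive cells, which allows a share of cells with a UMI of up to 1.53% for each. This limit, 3 of 196 cells, pools cells of all mice and depths and does not cover spread between mice. Of the Trb part, 14 of 159 cells (8.81%) held one of them, 7 with Cd4 and 7 with Cd8a or Cd8b1. All 7 cells with Cd4 also held Trac. Most cells of the Trb part showed neither an alpha chain nor a coreceptor transcript at this depth, and a low count cannot be told apart from absence.

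Icos (chr1:60977927-61000320), a costimulatory receptor, had a UMI in 52.8% of the Trb part against 13.3% of Trdc-positive cells. Gata3, a transcription factor of type 2 immunity that keratinocytes also express, was found in 48.4% against 13.8%. The type 2 cytokine Il13 was found in 27 cells (17%) against 12 (6.12%), and Il22, which acts on keratinocytes, in 17% against 9.69%. In the Trb part with a CD3 UMI the shares were 57.7% for Icos, 44.6% for Gata3, 17.7% for Il13 and 18.5% for Il22. The chemokine receptor Ccr8 was found in 17% against 1.53%, and Tnfrsf4, the costimulatory receptor OX40, in 22.6% against 1.53%, and with a CD3 UMI required in 15.4% and 25.4% of the Trb part. Foxp3, which defines regulatory T cells, had a UMI in 2 cells of the Trb part and in no Trdc-positive cell. Within the Trb part, cells without a CD3 UMI included, Cd28 was found in 56.0% of the 50 cells with Trac and in 33.0% of the 109 without. Icos was found in 68.0% and 45.9% of the same cells and Cd3e in 48.0% and 17.4%. Gata3 did not go with Trac, at 42.0% and 51.4%, so its cells cannot be read as alpha beta T cells from these counts. All 50 cells with Trac held a CD3 UMI, so the 109 include all 29 cells that lack one. With the same cells included, Il13 was found in 24.7% of the 77 cells with Gata3 and in 9.76% of the 82 without, whose median UMIs were 3604 and 2531.

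Since cells of the Trb part were deeper (median 2879 UMIs) than Trdc-positive cells (1682 UMIs), each cell was also thinned to 1000 UMIs, which left out 29 Trdc-positive cells and 4 of the Trb part. At this depth Icos was found in 10.8% of Trdc-positive cells and 38.1% of the Trb part with a CD3 UMI, and Gata3 in 8.98% and 25.4%, beside 5.97% of keratinocytes. Trac was found in 3.59% and 19.8%. In the other direction, Trdv4 was found in 45.5% and 2.38%, Fcer1g in 46.1% and 3.17%, Xcl1 in 25.7% and 2.38%, and Cd7 in 28.7% and 2.38%. The integrin Itgae (31.7% and 34.9%) and Cd69 (33.5% and 32.5%), both markers of T cells that stay in the skin, were found at nearly the same shares in both.

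**Figure D2:**
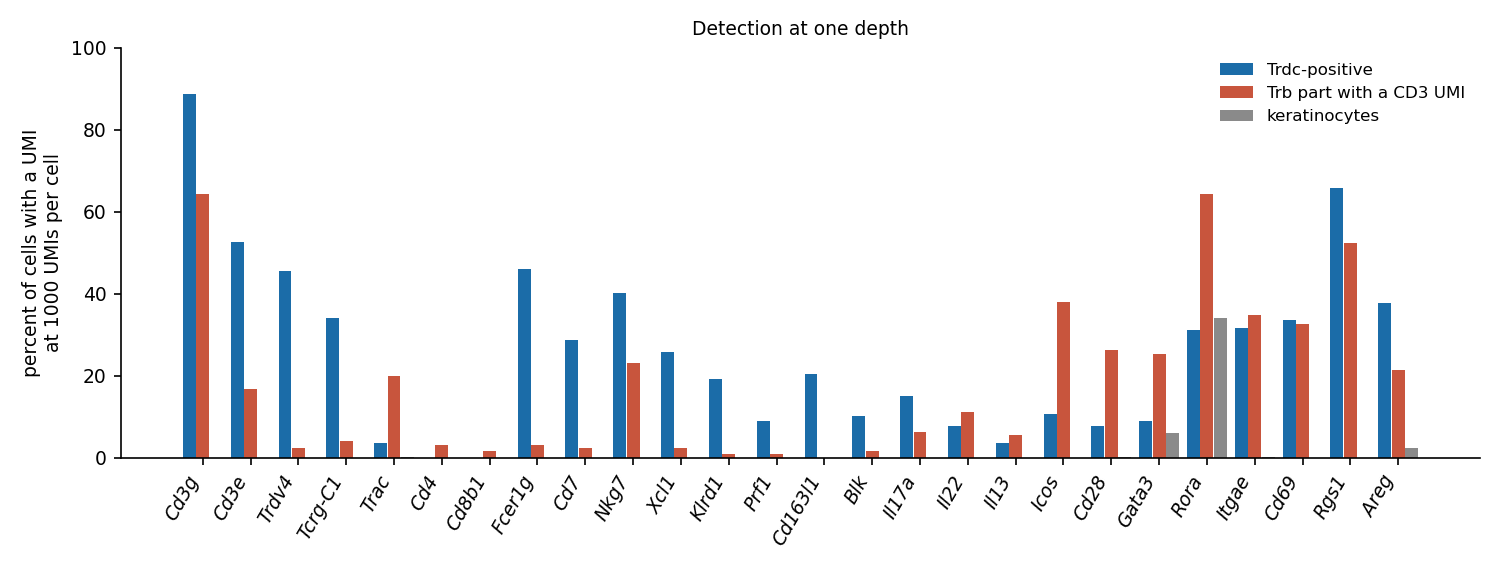
Bars show the percent of cells with a UMI of each gene after every cell was thinned to 1000 UMIs, for 167 Trdc-positive cells, 126 cells of the Trb part with a CD3 UMI and 78794 keratinocytes. The gamma and delta chain genes, Fcer1g, Cd7, Xcl1 and Cd163l1 stand higher in Trdc-positive cells, Trac, Icos, Cd28 and Gata3 in the Trb part, and Itgae and Cd69 at about the same height. Keratinocytes show bars for Gata3, Rora and Areg, and their 0 for the genes of the rule was set by the rule.

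The Trdc-positive cells were not uniform. After the values had been seen, the cells were sorted by 3 genes: Fcer1g, a signaling adaptor that dendritic epidermal T cells use, Cd163l1, a scavenger receptor of gamma delta T cells that make interleukin 17, and Il17a. Of the 196 cells, 97 (49.5%) held Fcer1g and neither of the others, 61 (31.1%) held Cd163l1 or Il17a and no Fcer1g, 7 held both kinds and 31 held neither. The first 2 groups were found in all 12 mice and had about the same depth, with medians of 1660 and 1753 UMIs. None of the 35 cells with Il17a held Fcer1g, Xcl1 or Nkg7, which were found in 64.6%, 41.0% and 63.4% of the 161 cells without Il17a. Because the groups were chosen on these counts, the shares that follow are a description and carry no test.

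Genes that the sorting did not use separated in the same way. Ctla2a was found in 96 of the 97 cells with Fcer1g (99.0%) and in 1 of the 61 cells with Cd163l1 or Il17a (1.64%). Nkg7 was found in 90.7% and 1.64%, Xcl1 in 58.8% and 1.64%, and Klrd1, a receptor subunit shared with natural killer cells, in 48.5% and 1.64%. Cd7 was found in 74.2% and 13.1%, and the pore-forming protein gene Prf1 in 29.9% and in none of the 61 cells. The granzyme gene Gzmb was rare in both (4.12% and 4.92%).

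In the other direction, the kinase gene Blk was found in none of the 97 cells with Fcer1g and in 36.1% of the 61 cells with Cd163l1 or Il17a. Il23r, the receptor that sustains interleukin 17 production, was found in none and in 27.9%, Il22 in none and in 23.0%, and Icos in 1.03% and 32.8%. Rora (13.4% and 72.1%) and Maf (15.5% and 44.3%), transcription factors of cells that make interleukin 17, were more often found in the second group, and so was Cd69 (36.1% and 65.6%). The growth factor gene Areg (51.5% and 39.3%) and Itgae (41.2% and 49.2%) were found at closer shares.

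Receptor genes differed between both groups as well. Tcrg-C1 was found in 70.1% of the cells with Fcer1g and in 31.1% of the cells with Cd163l1 or Il17a, and Trdv4 in 67.0% and 49.2%. Tcrg-V5 (chr13:19192278-19192725), the gamma variable segment of dendritic epidermal T cells, was found in 12 and 1 cells. Tcrg-V6 (chr13:19190356-19190929), known from gamma delta T cells that make interleukin 17, was found in 0 and 4 cells. Cd3e was found in 86.6% and 42.6%, while Cd3g was found in 99.0% and 95.1%. The 31 cells with none of the 3 sorting genes held Trdv4 in 71.0% and Ctla2a in 32.3% of cells.

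The share of Trdc-positive cells with Cd163l1 or Il17a and no Fcer1g was 30%, 27.8% and 27.8% in male RD replicates 1 to 3 and 47.1%, 45.5% and 76.9% in male HFD replicates 1 to 3. The male groups did not overlap. These shares rest on between 5 and 10 such cells per male mouse. The depth of Trdc-positive cells did not overlap between the male diets either, with medians of 1317, 931 and 1612 UMIs on RD and 2258, 2092 and 1652 UMIs on HFD. With each cell thinned to 1000 UMIs, a setting chosen after these values had been seen, the share was 29.6%, 25% and 22.2% on RD and 41.2%, 45.5% and 53.8% on HFD, again without overlap, on 3 to 8 such cells per mouse. Thinning removed male cells on RD only. It left 27 of 30, 12 of 36 and 18 of 18 Trdc-positive cells on RD and all 17, 11 and 13 on HFD. In females the share was 30%, 24% and 7.69% on RD and 14.3%, 12.5% and 25% on HFD, and the groups overlapped. The female shares rest on 1 to 6 such cells per mouse. Cells with Fcer1g and neither Cd163l1 nor Il17a made up 53.3%, 44.4% and 55.6% in male RD and 47.1%, 27.3% and 7.69% in male HFD mice, and these groups overlap.

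**Figure D3:**
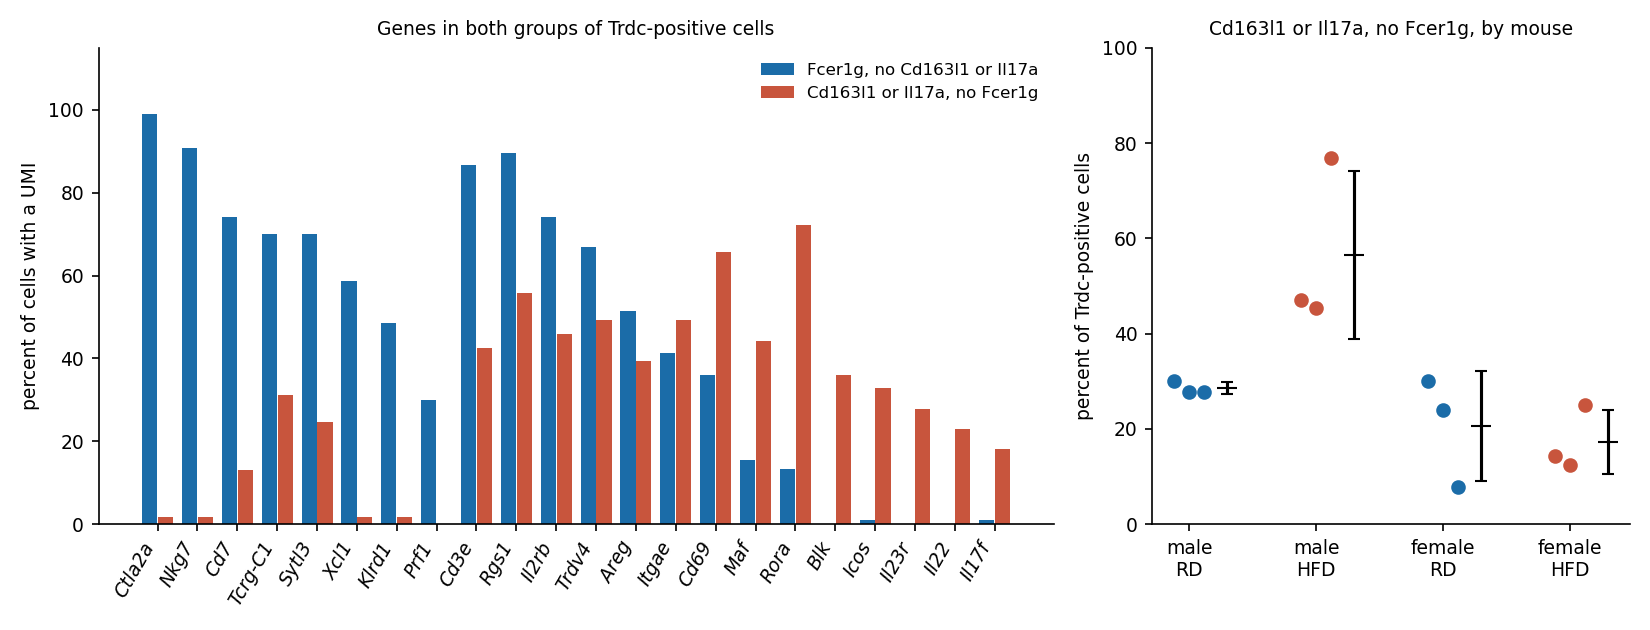
Left, the percent of cells with a UMI of each gene in 97 Trdc-positive cells with Fcer1g and no Cd163l1 or Il17a (blue) and in 61 with Cd163l1 or Il17a and no Fcer1g (red). Right, the second group as a percent of the Trdc-positive cells of each mouse (points), with the mean and SD of 3 mice. Ctla2a, Nkg7 and Xcl1 stand near 0 in red, Blk, Il23r and Il22 at 0 in blue, and the 3 male HFD mice lie above the 3 male RD mice.

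Gene expression of Trdc-positive cells was compared with that of the Trb part within mice, in the 10 mice that held at least 5 cells of both. UMIs were summed per mouse and part, genes of the rule were left out, and the quasi-likelihood test of edgeR was fitted with mouse as a block. Of 377 genes tested, 158 (41.9%) passed an adjusted p of 0.05, 92 higher (24.4%) and 66 lower (17.5%) in Trdc-positive cells. With a CD3 UMI required in every cell, 96 of 354 genes passed (27.1%), 74 higher (20.9%) and 22 lower (6.21%). Of the 92 genes called higher, 81 could be tested there, all in the same direction, and 61 were called. Of the 66 called lower, 64 could be tested, all in the same direction, and 13 were called. A gene entered only with enough counts in a sufficient number of sums, so that most receptor, cytokine and transcription factor genes were not tested in this fit.

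Fcer1g (chr1:171229572-171234365) had a level of 226 to 1211 CPM over the 10 mice in Trdc-positive cells, with a median of 801, against 0 to 490 CPM with a median of 0 in the Trb part. With such levels it passed the filter on low counts through the Trdc-positive sums, so its test in the filtered fit carries no weight of its own and only its levels are given. Without the filter, where every gene with a count was tested, Fcer1g rose by 4.21 ± 0.46 on the log2 scale (SE, here and below), and by 3.54 ± 0.47 with a CD3 UMI required as well. The size of these fitted changes depends on the count that edgeR adds to each sum.

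Sytl3, a protein of vesicle traffic (chr17:6659093-6738044), stood at 316 to 1632 CPM with a median of 489, against 33.0 to 368 CPM with a median of 47.3 in the Trb part. For the same reason its test in the filtered fit is left out, and without the filter Sytl3 rose by 3.09 on the log2 scale, and by 2.53 with a CD3 UMI required as well. Areg (chr5:91139599-91148432), amphiregulin, a growth factor for epithelium, was 2.48 ± 0.37 higher, at a median of 1542 CPM (329 to 4471) against 265 CPM (47.9 to 1020). Rgs1 (chr1:144242296-144249242), a regulator of chemokine receptor signaling that is high in resident T cells, was 2.12 ± 0.25 higher, at 2672 CPM (1535 to 3888) against 737 CPM (144 to 1504). Both kept their calls in every alternative fitted, at 1.97 to 4.13 for Areg and 1.51 to 5.59 for Rgs1. Without the filter on low counts Areg rose by 2.26 ± 0.34. Levels of Rgs1 in both parts did not overlap between mice, and those of Areg did.

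The other genes named by the rule for higher genes were Crem (2.02 ± 0.25), a cAMP-responsive transcription factor, Tiparp (1.69 ± 0.23), a target of the aryl hydrocarbon receptor, Il2rb (1.66 ± 0.31), the long noncoding RNA Lncpint (1.61 ± 0.37), Nkg7 (1.60 ± 0.35) and Vgll4 (1.57 ± 0.28), a transcription cofactor. A change in the same direction in all 10 mice was a condition for naming a gene. Median levels in the Trb part were 162 CPM for Crem, 226 for Nkg7, 275 for Il2rb and 281 for Vgll4, against 680, 664, 718 and 564 in Trdc-positive cells. These genes may have passed the filter on low counts mainly through the Trdc-positive sums, so their tests in the filtered fits carry little weight of their own. Crem kept its call in all 20 alternatives in which it was tested, at 1.56 to 4.34. With a CD3 UMI required all genes named in this paragraph stayed past the threshold, with log2 fold changes between 0.88 (Nkg7) and 1.79 (Tiparp). In the 4 male mice alone Il2rb, Tiparp, Nkg7 and Vgll4 missed the threshold, with log2 fold changes of 1.04 ± 0.41, 1.59 ± 0.47, 1.10 ± 0.43 and 1.37 ± 0.55. The difference between sexes was not tested.

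**Figure D4:**
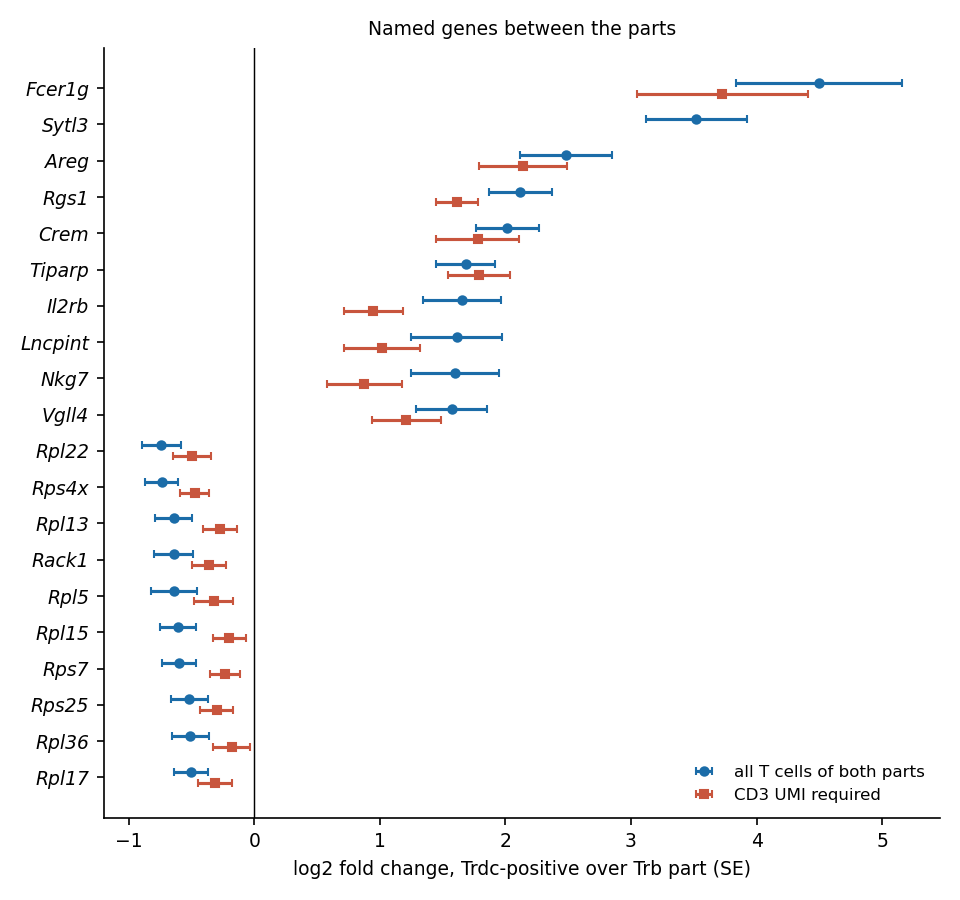
Points are log2 fold changes of Trdc-positive cells over the Trb part with their SE, for the genes named by the rule, in all cells of both parts (blue circles, 10 mice) and with a CD3 UMI required (red squares, 9 mice). The higher genes lie above 0 where they have a value, and Sytl3 has none in the second fit. Fcer1g, with a median of 0 in the Trb part, and Sytl3 passed the filter on low counts through the Trdc-positive sums, so their points carry no weight of their own. The lower genes move from between -0.74 and -0.50 toward 0.

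The lower genes named by the rule were Rack1, a protein of the small ribosomal subunit, and 9 ribosomal protein genes, led by Rpl22 (-0.74 ± 0.16) and Rps4x (-0.74 ± 0.13). Levels of Rps4x were 1477 to 3587 CPM in Trdc-positive cells and 3236 to 5184 CPM in the Trb part. Over all 79 ribosomal protein genes tested, a group noticed after the values had been seen, 54 fell and none rose, beside 17.5% of all genes that fell, with a median of -0.44 against 0.03 over all 377 genes. With a CD3 UMI required 7 of 79 fell, a share near the 6.21% of all 354 genes, and the median was -0.21 against -0.02. In the male mice alone 0 of 80 were called, and none of all 354 genes tested there was called lower. In the female mice alone 68 of 80 fell, with a median of -0.75 against 0.10 over all genes, and 116 of all 650 genes fell. Without the filter and with a CD3 UMI required 0 of 82 were called, beside 0.238% of all genes that fell. At 1000 UMIs per cell 4 of 76 fell, with a median of -0.16, and 8 of all 161 genes tested there fell, which is about the same share. Of the 10 named genes, Rpl22 and Rps4x kept their calls with a CD3 UMI required, and depth, CD3 UMIs and keratinocyte genes differed between both parts along with this group.

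Immediate early genes, which respond within minutes to stimulation and also to cell dissociation, were among those that passed. Of 15 tested, 8 rose and none fell, beside 24.4% of all genes that rose, with a median of 0.47 against 0.03 over all genes. With a CD3 UMI required 10 of 16 rose, beside 20.9% of all genes, with a median of 0.74 against -0.02. Without the filter on low counts 3 of 19 rose, beside 1.59% of all genes, and 4 of 19 with a CD3 UMI required as well, beside 1.35%. Nr4a3 rose by 1.87 ± 0.36 and Fos by 1.24 ± 0.41, and with a CD3 UMI required by 1.39 ± 0.29 and 2.44 ± 0.27. Jun had -0.17 ± 0.56 in all cells and 1.94 ± 0.40 with a CD3 UMI required, where it passed the threshold. The keratinocyte marker Lgals7 moved with this setting, from -0.40 ± 0.35 to 0.80 ± 0.26 (adjusted p = 0.0302, edgeR), and the median of 6 keratinocyte markers tested without the filter from -0.87 to 0.96. The part of keratinocyte RNA in these changes was not tested. Heat shock genes rose in 2 of 5, Dnaja1 (1.36 ± 0.19) and Hsp90ab1 (0.71 ± 0.16), and in 4 of 5 with a CD3 UMI required, and without the filter in 1 of 11 with or without that condition, beside the same 1.35% and 1.59% of all genes. None of 8 mitochondrially encoded genes of the respiratory chain passed the threshold, with a median of 0.14. Of the residency list Rgs1 and Rgs2 (1.54 ± 0.22) rose among 4 genes, and of the cytotoxic list Nkg7 and Srgn (0.71 ± 0.19) were the 2 genes tested.

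Genes of the receptor and effector lists came into reach only without the filter on low counts. Without it, 414 of 14985 genes passed (2.76%), 238 higher (1.59%) and 176 lower (1.17%). With a CD3 UMI required as well, 213 of 13446 genes passed (1.58%), 181 higher (1.35%) and 32 lower (0.238%). This last setting, used for the lists that follow, was chosen after the data had been seen, and a gene may be high there through few counts. In the list of gamma and delta chain genes 4 of 10 rose, and the same 4 rose with all cells included: Trdv4 (4.16 ± 0.53), Tcrg-C1 (3.62 ± 0.51), Tcrg-V5 (3.74 ± 1.09) and Tcrg-C4 (3.22 ± 0.94). Trdc, by which the cells were split, is rearranged with or paired to these chains.

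In the alpha beta list 4 of 13 genes fell, Trac (-2.18 ± 0.52), Cd6 (-5.00 ± 0.93), Cd28 (-2.18 ± 0.52) and Icos (-1.62 ± 0.43), and Runx3 (1.81 ± 0.43), a transcription factor of cytotoxic and epidermal T cells, rose. With all cells included Runx3 rose and Cd6 and Icos fell, and Trac and Cd28 did not pass. In the list of dendritic epidermal T cell genes 3 of 17 rose, Fcer1g, Cd7 (3.90 ± 0.54) and Klrd1 (4.30 ± 0.66), and with all cells included 5 of 18, adding Klrk1 and Ahr. The type 17 list had 2 of 17 genes higher, Cd163l1 (4.88 ± 0.73) and Blk (3.16 ± 0.72), and Rora (-1.30 ± 0.35) lower. Il17a was found in 17.9% of Trdc-positive cells and in 10.8% of the Trb part with a CD3 UMI, and had 1.53 ± 0.48 (adjusted p = 0.0764, edgeR). With all cells included 4 of 17 rose, adding Il17a (2.33 ± 0.47, adjusted p = 0.000109, edgeR) and Il23r (2.38 ± 0.52, adjusted p = 0.000648, edgeR), and Rora did not pass.

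Among secreted factors, 2 of 18 rose in Trdc-positive cells, Xcl1 (5.17 ± 0.61) and Areg (2.12 ± 0.35), and the chemokine gene Ccl1 (-3.98 ± 1.02) fell. With all cells included 3 of 21 rose, Il17a being the third. Fgf7, a growth factor known from activated dendritic epidermal T cells, had a UMI in 1 of the 159 cells of the Trb part and in no Trdc-positive cell, and Fgf10 and Igf1 in neither part. Of the cytotoxic list Prf1 (4.38 ± 0.91) was the gene that passed among 12, joined by Nkg7 and Cst7 with all cells included, and Gzma was at 0 in both parts. The regulatory list split, with Areg and Tnfrsf9 (2.30 ± 0.43) higher and Tnfrsf4 (-3.10 ± 0.73) and Gata3 (-1.58 ± 0.47) lower, of 13 tested, and with all cells included Il2ra was higher too. Among cytokine receptors Il12rb2 (5.01 ± 0.63) rose and Il18rap (-2.20 ± 0.61), a subunit of the interleukin 18 receptor, fell, of 20 tested, and with all cells included Il2rb and Il2ra rose as well. None of the 8 tested genes of circulation and lymph node homing passed.

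The study asks how HFD changes epidermal immune cells in each sex, and T cells were first compared by their number. In male RD mice 32, 48 and 25 T cells were found, or 0.233%, 0.316% and 0.301% of passing barcodes, and in male HFD mice 30, 16 and 30, or 0.482%, 0.182% and 0.304%. In female RD mice 24, 34 and 45 T cells gave 0.252%, 0.262% and 0.391%, and in female HFD mice 57, 18 and 27 gave 0.468%, 0.191% and 0.269%. The diets overlapped in both sexes. The means differed by 0.0392 percentage points in males (0.322 ± 0.151 on HFD, 0.283 ± 0.044 on RD, SD, n = 3 each, two-sided exact permutation p = 0.8) and by 0.0075 in females (0.309 ± 0.143 and 0.302 ± 0.077, exact permutation p = 0.8). With 3 mice against 3 the smallest p this test can give is 0.1. Males and females had means of 0.303% and 0.306% (n = 6 each, exact permutation p = 0.976).

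The number of T cells per 100 LCs does not depend on how many keratinocytes were captured. It was 16.9, 15.6 and 21.6 in male RD, 25.4, 12 and 21.3 in male HFD, 8.57, 14.4 and 11.4 in female RD and 15.7, 6.47 and 11.5 in female HFD mice. The diets overlapped in both sexes here too, with differences of 1.55 in males (exact permutation p = 0.8) and -0.22 in females (exact permutation p = 1), each smaller than the SD within groups.

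The makeup of the T cells was compared next. In male RD mice the Trdc-positive share of T cells was 93.8% (30 of 32 cells, exact 95% interval 79.2 to 99.2%), 75.0% (60.4 to 86.4%) and 72.0% (50.6 to 87.9%). In male HFD mice it was 56.7% (37.4 to 74.5%), 68.8% (41.3 to 89.0%) and 43.3% (25.5 to 62.6%). All 3 male HFD mice were below all 3 male RD mice. The intervals are exact binomial intervals, cover counting error only, and overlap between several mice of the opposite diets. The means were 56.3 ± 12.7% and 80.3 ± 11.8% (SD, n = 3 each), a difference of -24.0 percentage points with an exact permutation p of 0.1, the smallest possible here, so that the comparison could not pass 0.05.

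In males, requiring a CD3 UMI kept the groups apart, at 93.8%, 75.6% and 72.0% on RD against 58.6%, 68.8% and 48.1% on HFD. T cells of male HFD mice were deeper than those of male RD mice, with medians of 2114, 2052 and 1788 UMIs against 1317, 947 and 1623. After thinning to 1000 UMIs the male groups overlapped, at 92.9%, 68.8% and 84.2% on RD and 66.7%, 76.9% and 47.6% on HFD (difference -18.2 points, exact permutation p = 0.2). The part of depth in the difference was not tested further.

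In females the Trdc-positive share was 41.7%, 73.5% and 28.9% on RD and 12.3%, 44.4% and 29.6% on HFD. The female groups overlapped, with means of 48.0 ± 23.0% and 28.8 ± 16.1% (difference -19.2 points, exact permutation p = 0.5). The difference was -6.49 points without female RD replicate 2, -11.0 points without female HFD replicate 1 and -5.75 points after thinning. As a share of all passing barcodes, Trdc-positive cells were 0.217 to 0.237% in male RD, 0.125 to 0.273% in male HFD, 0.105 to 0.193% in female RD and 0.0574 to 0.0849% in female HFD mice. The Trb part was 0.0145 to 0.0723%, 0.0455 to 0.177%, 0.0617 to 0.243% and 0.0955 to 0.336% in the same order. These 2 sets of shares were not tested.

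**Figure D5:**
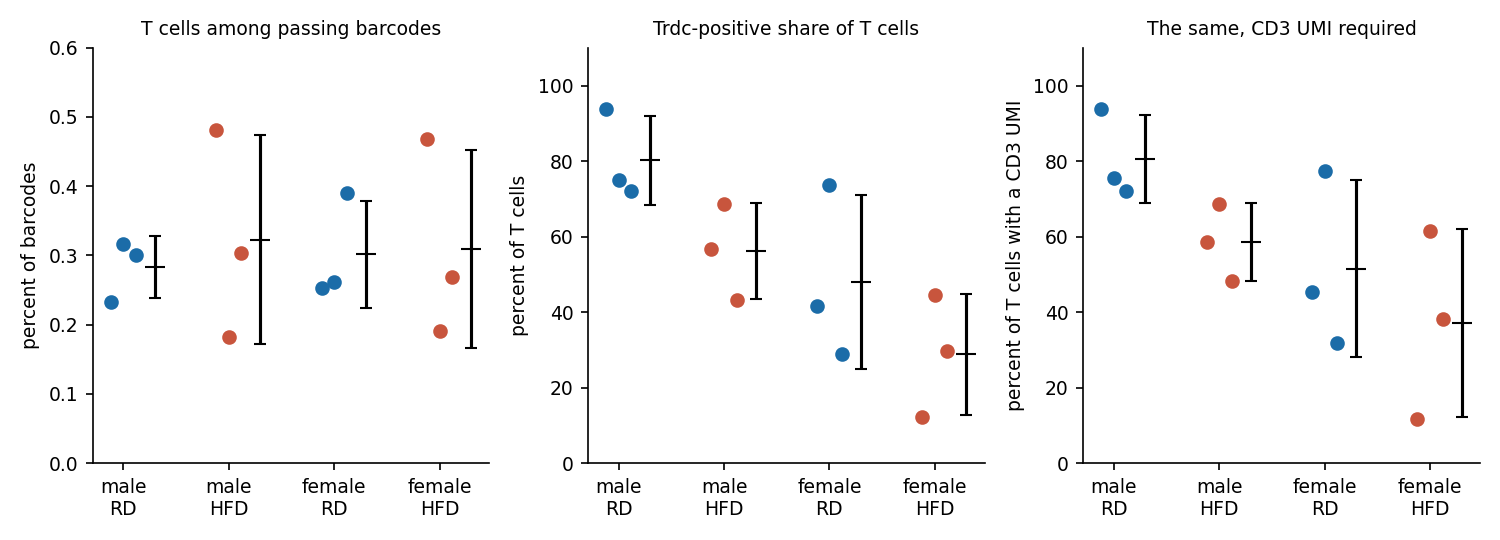
Points are mice and bars are means with SD of 3 mice in each group, for T cells as a percent of passing barcodes (left), Trdc-positive cells as a percent of T cells (middle) and the same among T cells with a CD3 UMI (right), with RD in blue and HFD in red. Diets overlap on the left in both sexes. In the middle and on the right the 3 male HFD mice lie below the 3 male RD mice, and the female groups overlap.

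No gene passed the threshold between diets in the summed UMIs of T cells. In males 0 of 743 genes (0%) were called by edgeR, 47 had an unadjusted p under 0.05, and DESeq2 called 1, Hspb1. In females 0 of 2106 (0%) were called, 150 had an unadjusted p under 0.05, and DESeq2 called 1, Fabp5. The interaction of diet and sex gave 0 of 1985 (0%), with 74 at an unadjusted p under 0.05 and 0 by DESeq2. Sums per mouse held between 35254 and 279079 UMIs, and a single barcode made up 33.3% of the sum of male RD replicate 1 and 33.9% of that of male HFD replicate 3. The size of change that could have been detected was not measured.

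Fcer1g, which the rule did not use, stood at 575, 680 and 818 CPM in male RD and 353, 369 and 89.6 CPM in male HFD mice. The log2 fold change in males, -1.48 ± 0.42, did not pass (adjusted p = 0.365, edgeR, and 0.0227 to 0.934 over 19 alternatives). Fcer1g was chosen after its values had been seen, and the share of the 743 genes with male groups that do not overlap was not counted. With mitochondrial UMIs of up to 10% allowed, 26 of 909 genes were called in males, Fcer1g among them. Its adjusted p there was 0.0227 (edgeR), the lowest for Fcer1g over the 19 alternatives. In females Fcer1g stood at 250, 558 and 245 CPM on RD and 100, 235 and 97.5 CPM on HFD, with -1.23 ± 0.46 (adjusted p = 0.587, edgeR). In such sums a smaller share of Trdc-positive cells cannot be told apart from a lower level per cell. Within Trdc-positive cells alone the log2 fold change of Fcer1g was -0.98 in males (adjusted p = 0.756, edgeR) and -0.12 in females (adjusted p = 0.992, edgeR).

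Ctla2a stood at 2953, 5057 and 5398 CPM in male RD and at 3144, 3432 and 505 CPM in male HFD mice, which overlap (-0.97 ± 0.56, adjusted p = 0.791, edgeR). The lowest value belongs to male HFD replicate 3, in which the deepest barcode, without a CD3 UMI, held 33.9% of the UMIs. In all, 3 barcodes of this mouse had no CD3 UMI, with 41641, 16358 and 12669 of its 122791 UMIs. Female HFD replicate 2 had 5, of 6078 to 25766 UMIs, in a sum of 115079, and male RD replicates 1 and 3 had 0. Levels over all T cells, here and for Fcer1g above, include such barcodes, and levels without them are not given. Trdc and Cd3e chose the cells, and their levels are given as a description. Trdc stood at 2423, 2762 and 2711 CPM in male RD and at 2169, 1929 and 366 CPM in male HFD mice. Within Trdc-positive cells the level of Trdc was 2519, 3894 and 3955 CPM in male RD and 3711, 2632 and 2015 CPM in male HFD mice, and these overlap. Cd3e stood at 575, 722 and 818 CPM in male RD, 353, 227 and 155 CPM in male HFD, 423, 912 and 452 CPM in female RD and 276, 156 and 332 CPM in female HFD mice. These 4 genes were chosen for this comparison after their values had been seen. Fitted on Trdc-positive cells alone, 0 of 388 genes in males and 0 of 528 in females were called, with 21 and 14 at an unadjusted p under 0.05.

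In the edgeR fits of all T cells and of Trdc-positive cells alone, none of the gene lists held a called gene between diets. Other settings called list genes, among them Fabp5 of lipid handling in females with DESeq2. Fcer1g of the dendritic epidermal T cell list was called in males with mitochondrial UMIs of up to 10%. Of the lists with at least 5 tested genes in each sex, the medians of the log2 fold change in males were 0.13 over 16 immediate early genes, -0.39 over 7 heat shock genes, 0.09 over 9 respiratory chain genes, 0.38 over 5 genes of glucose and insulin signaling, 0.05 over 7 type 17 genes and -0.15 over 9 residency genes, against 0.01 over all genes. In females the same lists had medians of -0.58 over 18 genes, -0.23 over 10, 0.49 over 10, 0.46 over 12, 0.01 over 8 and -0.28 over 9, against 0.02 over all genes. The list of dendritic epidermal T cell genes had -0.30 over 6 genes in males and -0.63 over 8 in females. Secreted factors had -0.01 over 7 genes and -0.45 over 8, and cytokine receptors -0.14 over 5 and 0.05 over 11. The gamma and delta chain genes, of which 2 could be tested, had medians of -0.80 in males and -1.13 in females. Within Trdc-positive cells alone this list, again with 2 genes tested, had medians of -0.06 and -0.28, the dendritic epidermal T cell genes 0.14 over 4 in males and -0.12 over 3 in females, and the type 17 genes 0.73 over 4 and 0.73 over 2, against 0.01 over all genes in both sexes. The keratinocyte markers, which include keratins that the rule limits, had a median of 0.94 over 7 genes in males and 0.94 over 9 genes in females. Of the markers outside the rule, Dsp had 1.77, Perp 1.71, Sfn 1.42 and Lgals7 0.22 in males. In females Dsp had 1.54, Lgals7 1.46, Sfn 1.41, Krt17 1.18 and Perp 0.34. Metabolic genes of lipid handling were mostly too low in T cells to test, with 1 gene in males and 3 in females.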

How the data were processed

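For each of 12 mice the authors deposited the UMI counts of every gene in every barcode that Cell Ranger had called as a cell, as whole numbers without normalization. The matrix headers name Cell Ranger 6.1.0 in males and 7.2.0 in females, the submitters' processing notes name Cell Ranger 7.2.0 and Seurat 5.0.0, and whether intron reads were counted is not given in the sources used here. The reference was GRCm38, and positions were taken from its GENCODE annotation by gene ID. No doublet caller was run, and the rule itself removes barcodes with Cd207 or with keratins.

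The members, gene lists and tests were chosen with earlier results of these data known. Counts were summed over the T cells of a mouse and compared with edgeR 4.0.16 (R 4.3.3; TMM, filterByExpr, quasi-likelihood test, Benjamini-Hochberg adjustment, threshold 0.05), in place of the study's test over single cells. Parts of the T cells were compared with mouse as a block, and the scripts were tested on simulated data. Shares were compared over mice with two-sided exact permutation tests (scipy 1.17.1). Up to 10 called genes per direction with the largest change in every mouse were named, along with genes of the lists and the 20 genes most specific to T cells. LCs were barcodes with at least 3 UMIs of Cd207, none of the 6 T cell genes and keratins under 0.5%. The floor for a count of 0 is 3 counts. Some genes are not reported here. Alternatives covered DESeq2 1.42.0, no filter on low counts, other limits of the rule, thinning to 1000 UMIs with a fixed seed, and leaving out each mouse. A CD3 UMI and at most 8000 UMIs per barcode were required as alternatives chosen after seeing the data.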

Additional observations from a re-analysis of the deposited data

Results flagged for a closer look

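A signal of Trbc2 appeared in barcodes that the comparisons did not use: 32.2% of the 120881 barcodes with keratins of at least 0.5% of UMIs held a UMI of this gene, while Trbc1 was found in 0.187% and the CD3 genes in at most 0.0769%. Of 7518 such barcodes with at least 3 UMIs of the 6 T cell genes, 97.4% held Trbc2 alone and 1.09% a CD3 UMI. Of the 668 of them with keratins under 2%, 91.9% held Trbc2 alone. The source of this signal was not tested. Among the 6 groups of mice large enough to look for a lone mouse far from the others, none was found.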

How the results depend on the processing

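The Trdc-positive share of T cells kept its direction between diets in all 16 alternatives in each sex (-30.3 to -15.1 points in males, -28.8 to -5.75 in females), with the replicate number as a block included (-24.0 and -19.2). The share of T cells had no stable direction. In females it turned with at least 5 T cell UMIs (-0.0223), a CD3 UMI (-0.0203) and thinning (-0.0580). Between sexes, males minus females, it was -0.280 with keratins under 2% (exact permutation p = 0.0433), and it turned with at least 5 T cell UMIs (0.0528), mitochondrial UMIs up to 10% (0.0077), a CD3 UMI (0.0264), at most 8000 UMIs (0.0580) and thinning (0.0447). T cells per 100 LCs in females turned with at least 2 T cell UMIs (1.63), keratins under 0.25% (0.175) or 2% (9.21) and mitochondrial UMIs up to 10% (0.0420).

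Without each mouse in turn, the share of T cells differed by -0.0405 to 0.109 in males (below 0 without male HFD replicate 1), -0.0717 to 0.0666 in females (below 0 without RD replicate 1, RD replicate 2 or HFD replicate 1) and -0.0386 to 0.0296 between sexes. T cells per 100 LCs differed by -1.37 (without male HFD replicate 1) to 5.33 in males and -2.47 to 2.16 in females (above 0 without RD replicate 2 or HFD replicate 2). Genes called in males numbered 0 to 1, and genes called between the parts 128 to 178.

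Between diets in males, genes called were 1 with DESeq2, 40 without the filter (median of all genes 0.33) and 26 with mitochondrial UMIs up to 10%, 13 higher and 13 lower, where Fcer1g was called. In females they were 1 with DESeq2, 102 without the filter (median 0.16), 1 with at least 5 T cell UMIs, 11 with at least 2 and 1 with at most 8000 UMIs. The interaction gave 70 without the filter. Between the parts they were 414 without the filter (238 higher, 176 lower, median -0.36), 90 with at least 5 T cell UMIs, 244 with at least 2, 1953 with keratins under 2%, 96 with a CD3 UMI, 34 after thinning, 58 with at least 10 cells per part, 3 in males alone and 270 in females alone. Fewer mice or genes entered several of these fits, and otherwise the cause was not tested. The replicate numbers only name mice (same-number correlations -0.61 to 0.31 in males and -0.16 to 0.03 in females), and with them as a block 0 genes were called in either sex and in the interaction, as without.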

Other observations

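Mki67, a marker of dividing cells, had a UMI in 5 of 196 Trdc-positive cells (2.55%) and in 14 of the 130 cells of the Trb part with a CD3 UMI (10.8%), beside 24.0% of keratinocytes at their greater depth. At 1000 UMIs per cell the shares were 0.599%, 5.56% and 6.57%. None of the 12 cell cycle genes passed between the parts without the filter on low counts and with a CD3 UMI required, and their median log2 fold change was -0.90 against -0.04 over all genes. With the cells that lack a CD3 UMI included, 4 of the 12 fell, beside 1.17% of all genes, with a median of -1.73 against -0.36.

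Il17a was spread unevenly over mice. In the T cells of the 12 mice its level ranged from 21.7 CPM in female RD replicate 1 to 908 CPM in male HFD replicate 2, and female RD replicate 2 had 871 CPM beside 21.7 and 61.3 in the other female RD mice. In Trdc-positive cells Il17a was at 220, 270 and 477 CPM in male RD and at 334, 1161 and 1881 CPM in male HFD mice, and these groups overlapped.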
